A study of Mus musculus with 10 samples.

Results

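The binding landscape of HA-tagged SOX15 in mouse embryonic stem cells was described from the peak lists of its 3 ChIP-seq libraries, replicates 1, 2 and 3. Together they hold 1326 of the 8819 peaks in the 5 peak lists of the series, and the description stays within and between these 3 lists. The lists were chosen by their titles, so no measured value entered the choice. The series mapped SOX15 and SOX2 in separate knock-in lines that each carry an HA tag, and has 10 samples, of which 3 are SOX15 ChIP libraries and 3 are SOX15 input libraries whose values were left out here. The 3 ChIP libraries form a single group: mouse embryonic stem cells with HA-tagged SOX15, grown in 2i/LIF, crosslinked briefly with formaldehyde and precipitated through the tag. There is no second group, so the spread over the 3 lists is the only error available and no test was made. The labels do not say whether the replicates were separate cultures or clones, so this spread may be technical.

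SOX15 belongs to the SOX family, transcription factors that contact DNA through an HMG box and bend it. Embryonic stem cells in 2i/LIF, 2 kinase inhibitors with leukaemia inhibitory factor, are held close to the naive pluripotent state. In ChIP-seq, DNA that is crosslinked to the tagged protein is recovered and sequenced, a peak is an interval with more reads than the caller expects, and its summit is the base where reads pile up highest. A peak shows recovered DNA and not direct contact of the protein with that DNA.

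Some of the intervals that recur in every list sit on very short transcription units, and their sequences are given first. The genes H2ac8 and H2bc8 encode core histones and are transcribed away from each other from neighbouring starts on chromosome 13. All 3 lists placed a summit beside the DNA between them, inside the first bases of H2bc8. In replicates 1, 2 and 3 it lay 22, 26 and 11 bp after the annotated H2bc8 start, with folds of 21.1, 16.2 and 13.3. A fold is the authors' enrichment over the caller's background and ranks peaks within a list. The 179 bases between both starts (GRCm38.p6, plus strand, chr13:23571221-23571399) are printed 5′ to 3′, from RefSeq, with capitals marking CCAAT on either strand (ATTGG is its complement) and TATAAA.
H2ac8-H2bc8: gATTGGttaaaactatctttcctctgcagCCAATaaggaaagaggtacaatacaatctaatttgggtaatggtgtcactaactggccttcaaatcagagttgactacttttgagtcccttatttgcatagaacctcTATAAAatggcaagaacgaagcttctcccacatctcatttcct

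The TATAAA begins 43 bp before the H2bc8 start, and CCAAT occurs once on each strand. U7 is the small nuclear RNA that pairs with histone pre-mRNA during the cutting of its 3′ end. Its gene, Rnu7, lies within the 250 bases upstream of Grcc10 (GRCm38.p6, minus strand, chr6:124741070-124741319). The region had summits at 124741150, 124741091 and 124741156, widths of 887, 846 and 873 bp, and folds of 13.6, 31.9 and 28.2. The summits thus fell between the start of Grcc10 and Rnu7 in every list. Grcc10 was picked after its values were seen. The capitals mark the 62 bases of Rnu7.
Grcc10-Rnu7: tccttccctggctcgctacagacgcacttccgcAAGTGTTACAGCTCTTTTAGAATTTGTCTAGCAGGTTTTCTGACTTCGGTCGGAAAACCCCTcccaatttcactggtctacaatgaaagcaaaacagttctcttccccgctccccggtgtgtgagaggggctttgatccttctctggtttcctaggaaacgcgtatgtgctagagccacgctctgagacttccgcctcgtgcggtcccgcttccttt

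A further interval recurs at the end of the miR-290 cluster, a group of microRNAs typical of pluripotent cells, on the plus strand of chromosome 7. MicroRNAs recognise targets mainly through the seed, bases 2 to 8, which is in capitals in these mature RefSeq sequences. They are shown because the widest interval by mean width in all 3 lists begins just after the last of them. The first 3 share the seed AAGUGCU, and the others differ from it.
mmu-miR-291a-3p: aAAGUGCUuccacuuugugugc
mmu-miR-294-3p: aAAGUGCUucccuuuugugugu
mmu-miR-295-3p: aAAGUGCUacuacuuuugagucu
mmu-miR-290a-3p: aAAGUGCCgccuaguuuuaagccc
mmu-miR-291b-3p: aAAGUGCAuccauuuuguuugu
mmu-miR-293-3p: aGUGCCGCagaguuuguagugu

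The interval past Mir295 (chr7:3220992-3223693 over the 3 lists) began 328, 249 and 151 bp after the hairpin's end in replicates 1, 2 and 3. It was 1593, 2604 and 2572 bp wide, with folds of 8.28, 10.3 and 16.8, and lay inside Nlrp12, a coding gene annotated on the minus strand. In replicate 1 a second peak of 406 bp, with a fold of 4.46, followed inside the same merged interval. The hairpins themselves were mostly outside peaks. Replicate 3 alone had a peak over Mir291b and Mir293 (1060 bp, fold 5.36), and replicate 2 alone had a peak over the mature miR-291a sequences (417 bp, fold 5.25). Replicates 1 and 2 had a further peak before the cluster, with summits 2935 and 2978 bp before the end of Mir295 and folds of 10.1 and 4.98. Mir291a, whose mature sequences lay under the 417 bp peak of replicate 2, is not part of the hairpin count that follows. Beside it, the count over 1005 microRNA hairpins in the RefSeq table gave 5 under a peak, each in replicate 3 alone. These were Mir25, Mir93 and Mir106b, which form a separate cluster, and Mir291b and Mir293.

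The lists differed in length and in the shape of their peaks. Replicates 1, 2 and 3 held 217, 672 and 437 peaks (mean 442 ± 228, SD, n = 3). Their median widths were 486, 255.5 and 300 bp (mean 347 ± 122 bp, SD, n = 3), so the shortest list had the widest peaks. The peaks covered 134059, 248639 and 180967 bp in all. The smallest −log10 q-value kept was 2.76, 2.03 and 1.31, so the list of replicate 3 reached to the weakest evidence. Depth is unknown, since the lists hold no read counts, so an absent peak can mean too few reads to pass the threshold.

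Peaks were sorted into classes by what lay within 1 kb of the summit. Small nuclear RNA (snRNA) genes, which in this table include the U3 genes, encode RNAs of the spliceosome and of ribosomal RNA processing. They had 35, 35 and 31 peaks in replicates 1, 2 and 3. Clustered histone genes, whose transcripts end without a poly(A) tail, had 60, 55 and 49. Small nucleolar RNA (snoRNA) genes had 5, 13 and 13. All other places had 117, 569 and 344. The snRNA and histone counts were thus similar in the 3 lists, and the lists differed mainly in the peaks elsewhere. The snRNA peaks were the widest class and had the highest folds in each list, with medians of 887, 856 and 765 bp and of 29.6, 35.3 and 39.1. Histone peaks had medians of 607, 502 and 508 bp and folds of 10.5, 8.34 and 8.04. Peaks elsewhere had medians of 372, 245 and 274 bp and folds of 6.40, 5.04 and 6.01. Across the peaks of a list, width and fold rose together, with Spearman's rho of 0.64, 0.45 and 0.55; this describes peaks of a single library, and both values come from the same read pile.

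**Figure D1:**
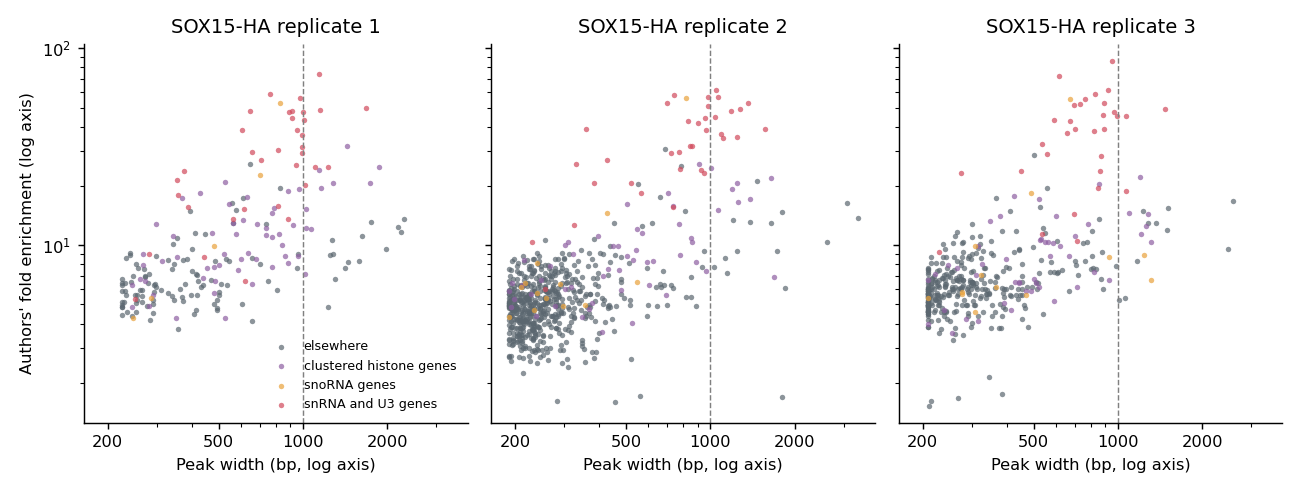
Peak width against the authors' fold enrichment, both on log axes, with a panel per SOX15-HA replicate and a point per peak, coloured by the gene class within 1 kb of the summit. The dashed line marks 1 kb; snRNA and U3 peaks form the upper group, with median folds of 29.6, 35.3 and 39.1, and peaks elsewhere make up most narrow points.

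Overlapping peaks of the 3 lists were joined into 967 regions, of which 120 held a peak of every list, 80 of 2 lists and 767 of a single list. Of the regions in a single list, 40 came from replicate 1, 471 from replicate 2 and 256 from replicate 3. Of 34 snRNA regions 31 were in every list, and of 65 histone regions 40 were. Elsewhere 45 of 851 regions were in every list and 746 in a single list. Regions in every list held the wider peaks: the widest of the highest-fold peaks had a median of 846.5 bp, against 414 bp for regions in 2 lists and 243 bp for regions in a single list.

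Chromosomes 13 and 11 had the most peaks per Mb in every list. Over the 20 chromosomes the lists held 0.0825, 0.255 and 0.166 peaks per Mb in replicates 1, 2 and 3 (mean 0.168 ± 0.0865, SD, n = 3), with chromosome length taken as the largest gene end in the RefSeq table. Chromosome 13 had 0.465, 0.573 and 0.449 peaks per Mb, from 56, 69 and 54 peaks. That is 3.53 ± 1.84 times the density of the whole list (SD, n = 3). Outside the 3 gene classes chromosome 13 held 0, 19 and 9 peaks, and its ratio without them fell to 0.434. Chromosome 11 had 0.189, 0.648 and 0.459 peaks per Mb, which was 2.53 ± 0.239 times the whole list, and kept 9, 58 and 39 peaks elsewhere. Chromosome 19, where Malat1 and Neat1 lie, had 0.179, 0.294 and 0.196 peaks per Mb, none of them at the 3 classes. The X chromosome was the sparsest in every list, with 1, 9 and 3 peaks and 0.00586, 0.0527 and 0.0176 peaks per Mb. Gene density moved with peak density. Across the 20 chromosomes, Spearman's rho between peaks per Mb and protein-coding genes per Mb was 0.45, 0.54 and 0.49, and 0.65, 0.69 and 0.68 for peaks outside the 3 classes. The chromosomes of a list share its library, so these are descriptions.

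**Figure D2:**
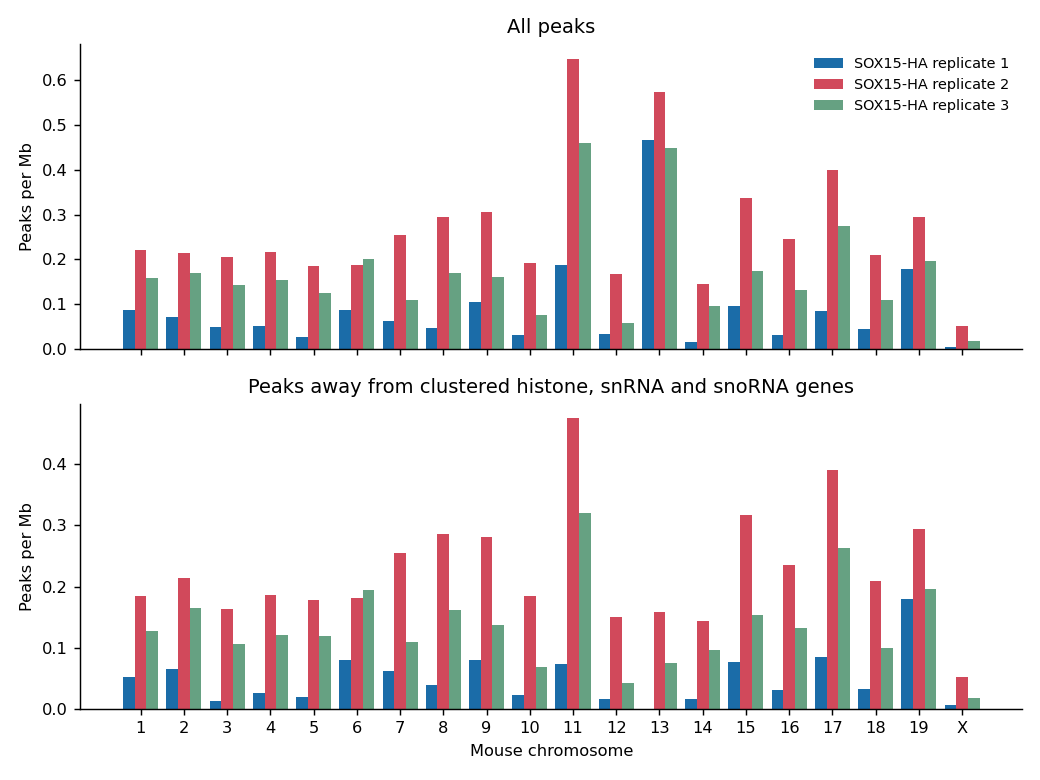
Peaks per Mb on each mouse chromosome for the 3 SOX15-HA replicates, as bars from 0, for all peaks (top) and for peaks away from clustered histone, snRNA and snoRNA genes (bottom). Chromosome 13 stands at 0.465, 0.573 and 0.449 in the top panel and at most 0.158 in the bottom panel, and chromosome X is the lowest in all 3 lists in the top panel.

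The fullest megabase of every list was chr13:23000001-24000000, the main histone cluster. It held 37, 29 and 30 peaks, which is 17.1%, 4.32% and 6.86% of the lists. The span from H4c8 to H2bc1 (chr13:23531044-23934156, 30 histone genes) carried 37, 29 and 29 peaks, with median gaps between summits of 1751.5, 2224.5 and 3116 bp. The shorter group from H2ac12 to H2bc11 (chr13:22035122-22043658, 5 histone genes) held 7, 6 and 5 peaks, which comes to 664, 569 and 475 per Mb. The group from H2bc13 to H2ac24 (chr13:21715711-21833475, 17 genes) held 12, 15 and 11. On chromosome 3 the group from H2ac20 to H2bc18 (chr3:96220413-96270192, 9 genes) held 5, 5 and 4.

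Summits fell into tight clusters separated by long empty stretches. The median gap between neighbouring summits was 20153, 1397258 and 1281982 bp in replicates 1, 2 and 3, and the smallest 381, 273 and 352 bp. Gaps of at most 1 kb numbered 38, 59 and 31, and gaps over 1 Mb 77, 372 and 217. A neighbour within 10 kb was found for 56.2%, 25% and 36.6% of summits (mean 39.3 ± 15.8%, SD, n = 3). At histone genes the share was 93.3%, 98.2% and 91.8%, close to complete in each list. Elsewhere it was 38.5%, 15.1% and 27.9%. Clusters of 3 or more summits, each within 10 kb of the next, numbered 14, 27 and 23, and 8, 7 and 8 of them held a histone gene summit.

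**Figure D3:**
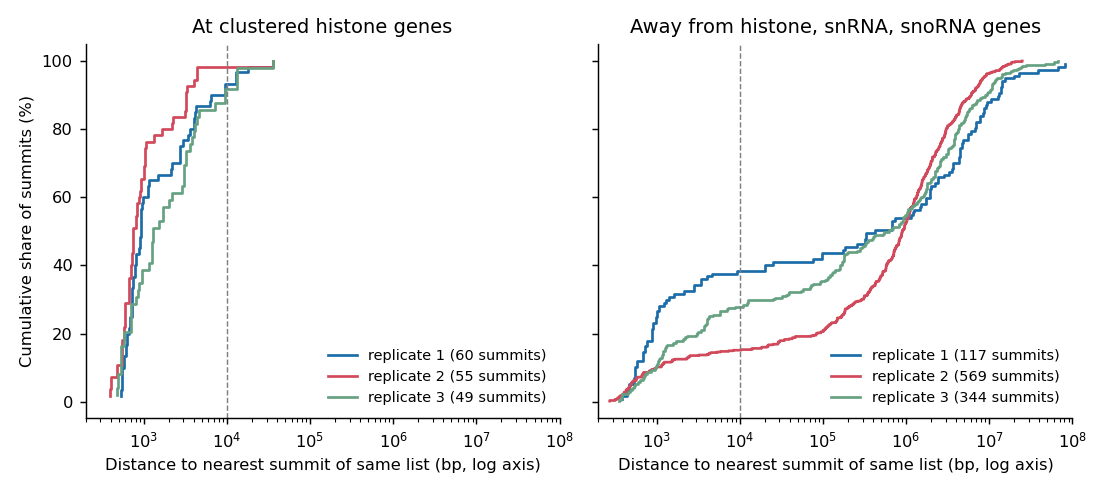
Cumulative share of summits by distance to the nearest summit of the same list (log axis), for summits at clustered histone genes (left) and away from the 3 gene classes (right), with a line per SOX15-HA replicate. The dashed line marks 10 kb, by which the histone summits reach 93.3%, 98.2% and 91.8%, and the summits elsewhere 38.5%, 15.1% and 27.9%.

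The largest clusters outside histone genes lay at a few single loci. At Malat1, a nuclear long noncoding RNA, and just past its 3′ end, 7, 7 and 3 summits formed a cluster. At Eef1a1, which encodes the factor that brings aminoacyl-tRNA to the ribosome, replicate 2 had 7 summits and replicate 3 had 4, while replicate 1 had 2 peaks, the first of them 2308 bp wide. In replicate 2, 5 of these lay 1919 to 4445 bp past the Eef1a1 3′ end and 2 lay inside the gene. Downstream of Zfp42, the gene of the naive marker REX1, the lists had 3, 3 and 5 summits, between 991 and 8672 bp past its 3′ end. A different kind of cluster stood at and beside Rn18s-rs5, a ribosomal RNA related sequence on chromosome 17, with 4 summits in replicate 2 and 3 in replicate 3. Their folds were 1.53 to 1.71, the lowest of both lists, and replicate 1 had no peak there. Reads from the many ribosomal RNA copies cannot be told apart there.

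Peaks wider than 1 kb numbered 31, 33 and 21 in replicates 1, 2 and 3 (mean 28.3 ± 6.43, SD, n = 3). They were 14.3%, 4.91% and 4.81% of the peaks and 32.8%, 19.7% and 15.9% of the covered bases. Their median folds were 13.1, 16.6 and 12.9, against 7.69, 5.20 and 6.25 for narrower peaks. They fell in 47 regions, of which 43 held a peak of every list. The peak exceeded 1 kb in all 3 lists in 11 of these regions, in 2 lists in 16 and in a single list in 20. By class, 12 were at snRNA genes, 12 at histone genes, 1 at a snoRNA gene and 22 elsewhere. Only 3, 4 and 3 of the wide peaks covered no annotated gene, and 23, 22 and 17 covered a protein-coding gene at least in part.

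The 11 regions that were wide in every list fell into 3 kinds. The first was histone genes, 5 regions. Those past H1f5, H1f1, H1f2 and H1f3, genes of linker histones that bind DNA where it enters and leaves the nucleosome, are described with their summits below. The last covered H2bc18 on chromosome 3, with widths of 1141, 1193 and 1206 bp and summits 12 bp apart at most. The next kind was a single snRNA region, which lay in Sirt4 on chromosome 5 over Gm24265 and Gm24407. It had widths of 1677, 1562 and 1473 bp, folds of 50, 39 and 49.1, and summits within 23 bp. The other 5 regions lay near transcription units of other kinds, and the interval past Mir295 was the widest of them, with a mean of 2256 bp.

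Among the others, the region past Rack1, a gene of a scaffold protein of the small ribosomal subunit, had widths of 1412, 1809 and 1366 bp and folds of 7.63, 14.7 and 12.9. It began after the annotated end of Rack1 and covered part of Trim41. The region past 2410006H16Rik had widths of 1285, 1243 and 1242 bp and lay within Lrrc75a. The region over Slc35b2 (chr17:45565940-45567776) ended 2 bp before the annotated span of Hsp90ab1, the gene of the constitutive HSP90 chaperone. It had widths of 1758, 1652 and 1500 bp and folds of 13.1, 13 and 11.9.

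Among regions wide in 2 lists, the largest was in Zmynd8, a chromatin reader gene, with 2239 and 3360 bp in replicates 1 and 2 and 838 bp in replicate 3. The next lay over Mfsd12 and the end of Fzr1, an activator of the anaphase-promoting complex, with 2194, 3075 and 722 bp. Gapdh, which encodes a glycolytic enzyme, had 1299, 1388 and 752 bp. Ier2, an immediate early gene, had 1232, 1731 and 365 bp. All these widths are of the highest-fold peak of each list, and in these 4 regions that of replicate 3 was the narrowest. Its signal could be split over several peaks. In Zmynd8 replicate 3 also had peaks of 633 and 221 bp, and replicate 1 also had peaks of 486 and 311 bp. At and beside Ier2, replicate 3 had 3 summits over 1943 bp. Regions near Hspa8 (1455, 855 and 1229 bp) and Rpl3 (1266, 818 and 1169 bp) were narrowest in replicate 2. The snRNA genes Gm22068 near Rnu1a1 (1104, 1064 and 989 bp), Rnu2-10 (1234, 1185 and 886 bp) and Rnu5g (996, 1243 and 1067 bp) passed 1 kb in 2 lists. The 20 regions that passed 1 kb in a single list include 2469 bp within Sh3gl2 in replicate 3, where replicate 2 had 201 bp and replicate 1 no peak.

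Many wide peaks had their summit past the end of an annotated gene. Strand was known for 17273 of 21627 protein-coding genes, and the search along it was added after the first values were seen. Of the 47 wide regions, 23 had their summit within 2 kb past the 3′ end of a stranded coding or long noncoding gene. By class these were all 12 wide histone regions, 0 of 12 snRNA regions, the 1 snoRNA region and 10 of 22 elsewhere. The same share was not counted over narrower regions, so it is not known whether wide regions differ from them in this. Histone genes lie so close together that this window takes in neighbours. The region counted 631 bp past H3c13 had its summit 86 bp after the start of H2bc18. Another, counted 772 bp past H2ac13, had its summit inside H3c10. For H1f2 the summit lay 126, 129 and 96 bp past the 3′ end in replicates 1, 2 and 3, for H1f1 122, 223 and 157 bp, for H1f3 258, 348 and 258 bp, and for H1f5 45, 346 and 135 bp. For Gapdh it lay 261, 607 and 537 bp past, for Rack1 1336, 1061 and 1041 bp, and for Eif4a2, a translation initiation helicase, 576, 630 and 574 bp. The wide peak of Ftl1, ferritin light chain, lay 573, 610 and 640 bp past its end, and also past that of Gys1, which is transcribed towards it.

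The same placement was seen over all summits outside the 3 classes. Of regions in at least 2 lists, 33 of 105 (31.4%) lay within 2 kb past a 3′ end, 7 within 2 kb before a start and 14 within 2 kb after a start. Of the 33, 7 were also near the start of another gene. Counted over genes, 32 of 17217 stranded coding genes had such a region past their 3′ end, which is 0.186%, against 7 (0.0407%) before the start and 14 (0.0813%) after it. The last 2 kb before the 3′ end held a shared region in 18 genes (0.105%), so regions also lay on the near side of the end. By list, the share of summits past a 3′ end was 29.1%, 11.2% and 19.8% (mean 20.03 ± 8.91%, SD, n = 3). Before a start it was 6.84%, 2.64% and 4.94% (mean 4.81 ± 2.10%), and after a start 6.84%, 8.26% and 8.43% (mean 7.84 ± 0.875%). Per Mb of window, summits past 3′ ends were 22.9, 8.85 and 15.6 times as dense as over the genome, summits before starts 5.29, 2.04 and 3.82 times, and summits after starts 5.27, 6.37 and 6.50 times. The window past 3′ ends was the densest of these in each list, by the least in replicate 2. Whether transcription level moves with these positions was not tested, since the lists hold no expression.

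**Figure D4:**
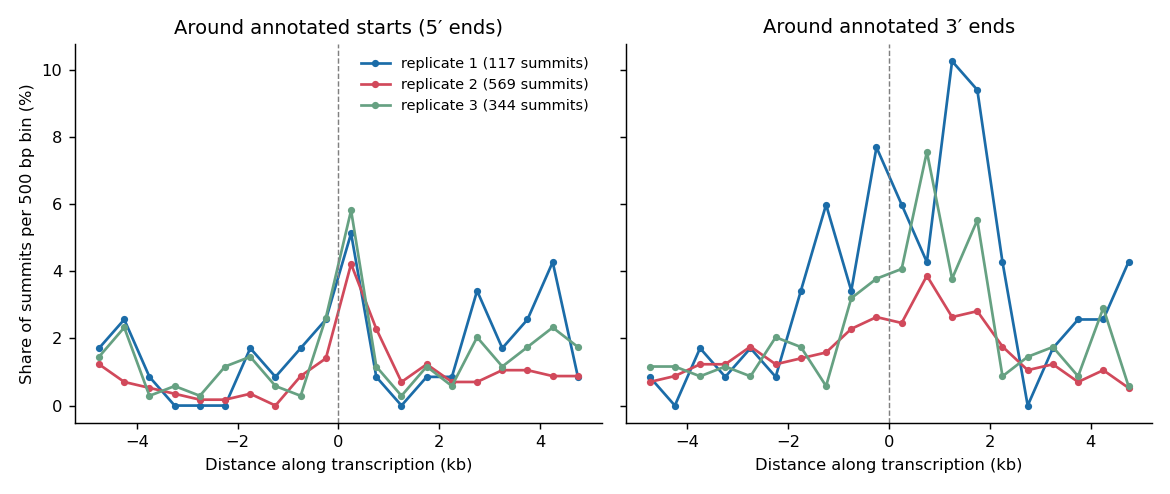
Share of summits (%) in 500 bp bins around annotated starts (left) and 3′ ends (right) of stranded protein-coding genes, histone genes left out, for summits away from the 3 gene classes, with a line per SOX15-HA replicate. Distance runs along transcription, so values right of 0 in the right panel lie past the gene; the windows of 2 kb past 3′ ends hold 29.1%, 11.2% and 19.8% of summits, and a separate narrow rise stands just after starts.

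Of the 32 genes with a shared region past their end, 15 belong to the gene lists and 17 to none. The 15 are the translation factor genes Eef1a1, Eef2 and Eif4a2, the ribosomal protein genes Rps18, Rpl12, Rpl10a and Rpl31, the genes of RNA-binding proteins Hnrnpu, Hnrnpa1, Hnrnpa3 and Srsf2, and the housekeeping genes Gapdh, Actg1, Ncl and Nop56. The 17 are Fzr1, Mto1, Rack1, Ube2m, Gys1, Ftl1, Snx17, Slc35g3, Wdr46, Prrc2a, Nlrp12, Senp3, Sgk1, Mat2a, Mbd4, Foxr1 and Fam71e2. Being past an end does not exclude being near a start. The region of Slc35g3 also lay 52 bp after the start of Polr2a, and that of Senp3 32 bp after the start of Eif4a1. That of Nlrp12 is the peak before the miR-290 cluster, and at Mto1 the replicate 1 summit lay inside the gene. Hnrnpu had folds of 5.49, 6.28 and 4.47, with a summit 156 bp past its end. Rps18 had folds of 3.74, 4.84 and 7.22, 574 bp past. Some of these regions were in 2 lists only: Eef2 had folds of 6.61 and 10.5 in replicates 1 and 3 and no peak in replicate 2.

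Histone genes showed the same end. Of 56 stranded clustered histone genes, 37 had a shared region with its summit within 500 bp past the 3′ end, 8 within 500 bp before the start and 10 inside the gene. The genes are short, with a median of 491 bp, and their neighbours close, so a single summit can lie past one gene and before another. In 7 of the genes a summit lay within 500 bp past the 3′ end and another within 500 bp before the start. Summits shared by neighbouring genes were not counted. Of 6 linker histone genes, H1f1, H1f2, H1f3, H1f4 and H1f5 had such a region past the end, and H1f6 had none. In all, 19 of the 56 genes had none within that distance, among them the neighbours H2ac23, H4c17, H4c18 and H2ac24.

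Summit positions were compared over the 120 regions present in every list, taking the highest-fold peak of each list. The absolute distance between summits had a median of 47.5 bp for replicates 1 and 2, 64.5 bp for 1 and 3, and 62 bp for 2 and 3 (mean of the 3 pairs 58 ± 9.18 bp, SD, n = 3 pairs that share libraries). The signed medians were 4.5, 2 and −5.5 bp, so no list was displaced as a whole by more than a few bases. Summits agreed to within 50 bp in 66, 51 and 51 regions, and lay over 500 bp apart in 6, 9 and 5.

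The spread, the distance between the outermost of the 3 summits, had a median of 95 bp and ran from 1 to 1669 bp. It was 58 bp at snRNA genes (31 regions), 57 bp at snoRNA genes (4 regions), 110 bp at histone genes (40 regions) and 152 bp elsewhere (45 regions). In the 43 regions with a peak over 1 kb it was 223 bp, and in the other 77 it was 78 bp. As a share of the mean width of the region's peaks, the medians were closer, at 18.6% and 13.5%. All 11 regions with a spread over 500 bp had a peak over 1 kb, but overlapping narrow peaks leave little room for a large spread. The rho of spread with mean width was 0.30 and with the mean percentile rank of fold −0.38. The snRNA regions were thus wide and yet narrow in spread, which the plot of spread against width shows.

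**Figure D5:**
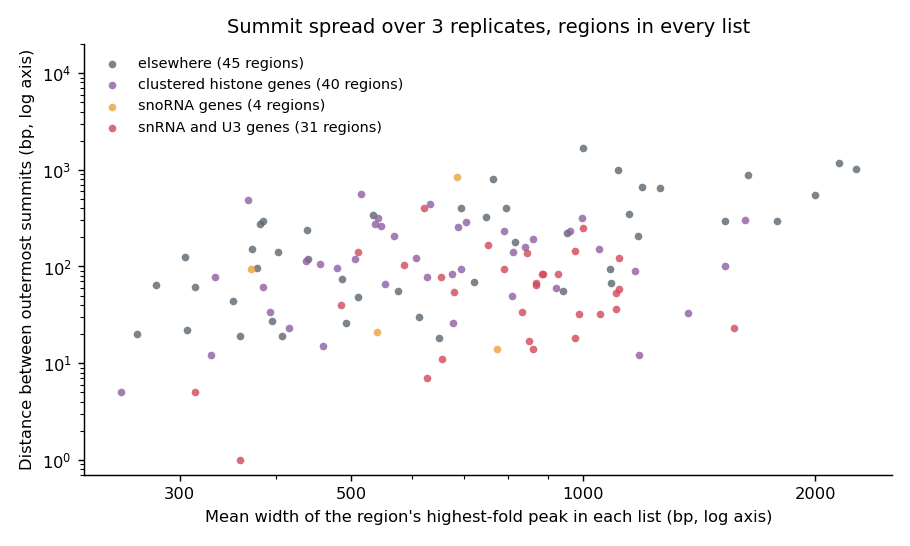
Distance between the outermost summits of the 3 SOX15-HA replicates (bp, log axis) against the mean width of the highest-fold peak in each list (bp, log axis), with a point per region present in every list, coloured by gene class. Spread ranges from 1 to 1669 bp; snRNA and U3 regions have a median of 58 bp and regions elsewhere 152 bp.

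The 5 tightest regions lay at Rnu3b2 inside Tex14 (1 bp), H3c1 (5 bp), an snRNA gene on chromosome 3 whose nearest coding gene is BC107364 (5 bp), Gm24950 near Rdm1 (7 bp) and Gm23143 near Armh1 (11 bp). At Rnu3b2, a U3 gene, the summits were at 87471633, 87471634 and 87471634, although the folds were 8.75, 38.8 and 23.4. The 5 widest spreads lay at the end of Mto1 on the side of Eef1a1 (1669 bp), in Zmynd8 (1171 bp), past Mir295 inside Nlrp12 (1012 bp), at Ier2 (1006 bp) and over Slc35b2 (885 bp). At the end of Mto1 the highest-fold peaks were 2308, 480 and 215 bp wide. Replicate 2 had further peaks of 593, 259 and 267 bp inside the broad interval of replicate 1. The summit of the 593 bp peak was at 78474008, beside 78473709 in replicate 1. The spread of 1669 bp thus compares only the highest-fold peak of each list, where replicate 2 had its signal split over several peaks.

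Runs along a gene were counted where 3 or more summits of a list lay inside the gene body. They were found in 5, 7 and 6 genes in replicates 1, 2 and 3, and in 12 genes over all lists, of which 10 are protein-coding and 2 are long noncoding. Tex14, a gene of intercellular bridges in germ cells, alone had a run in every list, with 6 summits in each. All 18 lay at snRNA and U3 genes within it, among them Rnu1a1, Rnu3b1, Rnu3b2, Rnu3b3 and Rnu3b4. Their folds ran from 8.75 to 58.7 in replicate 1, 18.4 to 56.5 in replicate 2 and 23.4 to 72.7 in replicate 3. Copies of U1 and U3 genes are nearly identical, so how their reads were shared out is uncertain. In D230017M19Rik the 3, 2 and 2 summits also lay at snRNA genes, Gm24497 and Gm25939.

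Malat1 had 6, 4 and 2 summits in its 6.98 kb, away from any snRNA, snoRNA or histone gene. Their folds were 5.58 to 11.3, 5.37 to 9.05 and 5.28 to 10.3. The highest of each list inside the gene lay near its 5′ end, at 5802590, 5802547 and 5802644. Its strongest region lay outside the body, 563 bp past the 3′ end, with folds of 12.8, 12.5 and 13.6 and summits 69 bp apart at most.

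Ggcx had 0, 3 and 3 summits over 1561 bp of its final part, a stretch that lies past the 3′ end of Mat2a, the gene of the enzyme that makes S-adenosylmethionine, which is transcribed towards it. Tbc1d8 had 3, 4 and 2 summits, which lay just past the 3′ end of the ribosomal protein gene Rpl31, transcribed towards it. Zmynd8 had 3, 2 and 3 summits over 3354 bp. The 7 other genes reached 3 summits in a single list. Among them, replicate 3 alone gave runs in Dym (0, 2 and 4 summits) and Slc25a12 (0, 0 and 4), and replicate 2 alone in Spats1, Tex2 and Ubtf (0, 3 and 1 each). D230017M19Rik passed in replicate 1. Leaving out replicate 3, 9 genes had a run.

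Gene lists of the nuclear RNA, histone, translation and stem cell classes were read against all protein-coding genes. Of 21627, 153 had a region of at least 2 lists over the body or within 1 kb, which is 0.707%. Counts for the RNA and histone lists partly restate the classes above. Of 55 core histone genes 44 had such a region, and of 8 linker histone genes 6. All 6 U3 and U8 genes had a region, and each was in every list. Snord118, which encodes U8, had folds of 52.6, 56.0 and 55.4 and summits within 14 bp. Rnu3a had folds of 38.4, 56.4 and 52.4.

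Of 10 snRNA genes 6 had a region in every list, and they include both classes of spliceosome. For the major spliceosome, Rnu1a1 had folds of 29.6, 44.4 and 38.9, and Rnu5g 36.3, 35.3 and 45.6. For the minor spliceosome, which removes a rare kind of intron, Rnu11 had 48.0, 29.9 and 37.9, and Rnu12 25.5, 24.1 and 37.3. The other 4, the U1 genes Rnu1b1, Rnu1b2 and Rnu1b6 and the U6 gene Rnu6, had no region in any list. Of 11 other noncoding genes, Malat1 and Neat1 had a region of at least 2 lists and Rny1, a Y RNA gene, a peak in replicate 1 alone with a fold of 5.29. The remaining genes had no peak, among them Rn7sk, Rmrp, Rpph1 and Terc, the telomerase RNA gene. Neat1, the scaffold RNA of paraspeckles, had folds of 6.32, 6.09 and 7.28.

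The lists of other protein-coding genes had smaller shares. Of 78 ribosomal protein genes 6 had a region in at least 2 lists, of 23 translation factor genes 4, of 24 hnRNP and SR protein genes 4, and of 24 housekeeping and chaperone genes 5. Of 12 snoRNA host genes 1 had, Snhg3. Polr2a, the largest subunit of RNA polymerase II, had a region 52 bp after its start with folds of 8.35, 17.6 and 9.37.

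Of 11 core pluripotency genes none had a region in 2 lists. Nanog had a peak in replicate 3 alone, 537 bp past its 3′ end, with a fold of 5.26. Of 14 naive pluripotency genes 2 had a region in 2 lists. Tfcp2l1 had folds of 6.90 and 10.4 in replicates 2 and 3, 87 bp after its start, and Esrrb 7.67 and 6.27 in replicates 1 and 2, inside the gene. Of 18 SOX genes none had a region in 2 lists, and Sox15 itself had none in any list; Sox13 had a peak in replicate 3 with a fold of 5.54. None of 10 trophectoderm and primitive endoderm genes had a peak in any list. Since 0.707% of all coding genes had a region in at least 2 lists, a count of none in such short gene lists is near that share. The share with a peak in any list was not counted over all genes. Of 11 fibroblast genes, which mark the feeder cells such cultures can hold, Pdgfrb had a region in every list with folds of 14.99, 10.8 and 9.04. A peak list holds no expression, so these lists do not check the cell type.

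Few of the 300-base promoter windows of RefSeq, which run from 250 bases before to 50 after a start, held a summit. Summits per Mb of these windows were not counted, so this share does not compare the windows with the genome. Of 32851 windows, 19, 32 and 24 held a summit of replicates 1, 2 and 3, and 6 held a summit of every list. These belonged to H2ac8, H2bc8, H2ac11, H2bc11, H2bc15 and Grcc10, and the histone pairs H2ac8 and H2bc8, and H2ac11 and H2bc11, share their DNA. CCAAT, searched on both strands, was in all 6 windows and in 37.4% of all windows. TATAAA was in 3 of the 6 and 13.6% of all, and GGGCGG in 1 and 35.7%. The SOX-type motifs ACAAAG and ACAATG were each in 2 of the 6, against 18.7% and 12.6% of all windows. With so few windows that share sequence, these matches describe the DNA under the summits and no more.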

How the data were processed

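ChIP-seq peak lists of 3 SOX15-HA libraries were used, 1 list per library, so peaks were called per sample. The submitters' processing notes name Bowtie2, MACS2, deepTools and mm10, with no version or order; the control used in calling is not stated there. The deposited columns used were the fold (a linear ratio over background), the −log10 q-value and the summit offset, as the authors wrote them. Folds were used only within a list.

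Positions were converted to 1-based. Peaks overlapping by 1 bp or more were joined into regions, and a shared region held peaks of at least 2 lists. Genes, promoter windows and microRNAs came from RefSeq tables of GRCm38.p6, which shares the coordinates of mm10; strand came from the promoter table. Python 3.11.15, numpy 2.4.6, pandas 2.3.3 and matplotlib 3.10.9 were used, and the counting code was tested on simulated peaks. Members and gene lists were chosen with earlier results of these data known. Named genes were those under peaks over 1 kb in at least 2 lists (up to 30), with runs (up to 20), list members in all 3 lists (up to 30), Sox15 and 6 noncoding RNA genes, and the 5 regions at each end of summit spread. Promoters followed a rule of 1 per gene list, up to 6. Other genes are named after their values were seen. Alternatives were a stricter q-value, other distances, widths and overlaps, and each replicate left out. A wide region and a gene with a run are not reported here by name.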

Additional observations from a re-analysis of the deposited data

How the results depend on the processing

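Of 67 alternative values, 56 stayed within 1.5 times the reported count or within 1 SD of the reported mean, and 11 moved. Not all of the 56 could have moved. For the chromosome 13 ratio, summit spacing and peak width, the limit was 1 SD over the 3 lists. Leaving out 1 list cannot shift such a mean that far, so these values do not show stability. Keeping 1 summit per interval gave the same spacing value and SD as reported. Leaving out peaks at histone, snRNA and snoRNA genes moved 5 results: the density ratio of chromosome 13 fell from 3.53 to 0.434, peaks over 1 kb per list from 28.3 to 13, shared regions from 200 to 105 and gene list members with a shared region from 87 to 24, and the median summit shift rose from 58 to 81.5 bp. Other widths gave 53.3 peaks per list over 800 bp and 8 over 1500 bp. Runs were found in 49 genes with 2 summits as the minimum and in 38 with 1 kb added to the gene body, against 12. Windows of 1 kb past 3′ ends, chosen after seeing the data, gave 17 genes against 32. The median shift was 48 bp without replicate 3 and ranged from 48 to 66 bp over the replicates left out. The other alternatives, a −log10 q-value of at least 3 among them, did not move a result past these limits. No paired analysis was possible because the 3 lists form a single group. Depth is unknown, so it is not known which absent peaks lie under the threshold.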
